A study of Mus musculus with 18 samples.

Results

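Antigen presentation by MHC class II molecules was followed through 8 genes in bone marrow-derived macrophages (BMDMs), taken from a table of 25926 genes by their symbols. Ciita encodes the transactivator of class II genes. H2-Aa and H2-Ab1 encode the alpha and beta chains of the A molecule, and H2-Eb1 encodes the beta chain of the E molecule. Cd74 encodes the invariant chain, and H2-DMa, H2-DMb1 and H2-DMb2 encode chains of the DM molecule. The BMDMs came from C57BL/6J mice, whose number, sex and age are not in the sample labels, and were differentiated over 7 days of culture with M-CSF at 50 ng/mL. They were plated on a Transwell membrane (0.4 μm pores) over primary renal tubular epithelial cells (TECs) of wild-type mice. In the NC group (n = 6) the BMDMs received PBS and the TECs no crystals. In the COM group (n = 6) the BMDMs received PBS and lay above TECs that had been exposed to 100 μg/mL calcium oxalate monohydrate for 24 h. In the COM+Met group (n = 6) the BMDMs above crystal-exposed TECs were treated with 5 mM Met for 24 h, a name that the labels do not spell out. No group held BMDMs without TECs, and no group received Met without crystals, so an effect of Met by itself cannot be told apart from its effect on crystal-exposed cocultures.

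Class II molecules carry peptides from endocytosed proteins to the surface of antigen-presenting cells, where CD4+ T cells read them. The invariant chain occupies the groove of newly made class II molecules and guides them into the endosomal route, where proteases trim it to a short remnant that DM helps to exchange for peptide. Ciita does not bind DNA itself but is recruited to the factors that sit on the X and Y boxes of class II promoters, and in macrophages its best-known inducer is interferon gamma. Mice of the C57BL/6 background make no E alpha chain, so their E beta chain has no partner of its own molecule. H2-Ea was not analysed here. In bulk RNA, fewer cells that express these genes and less RNA per cell cannot be told apart.

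All members but Cd74 and Ciita lie in the MHC on chromosome 17. On GRCm38 (GENCODE M21), H2-DMa spans chr17:34119541-34139101, H2-DMb2 chr17:34143307-34151555, H2-DMb1 chr17:34153072-34160230, H2-Ab1 chr17:34257689-34269419 and H2-Eb1 chr17:34305867-34316674, all on the plus strand. H2-Aa spans chr17:34282744-34287823 on the minus strand. Ciita spans chr16:10480059-10528418 on the plus strand, and Cd74 lies on another chromosome.

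The RefSeq promoter table (GRCm38.p6, from 250 bases before to 50 bases after each gene start) held windows for 5 of the 8 members. The windows were searched on both strands for the core of the X box (AACNGATG), the Y box (ATTGG) and the palindrome of the X2 box (TGACGTCA). The stretches below are shown because they hold the elements that class II promoters share and through which Ciita is recruited. Capitals mark the matches to these letters.
H2-Aa, chr17:34287862-34287916, minus strand: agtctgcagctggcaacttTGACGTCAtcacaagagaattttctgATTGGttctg
H2-Eb1, chr17:34305763-34305817, plus strand: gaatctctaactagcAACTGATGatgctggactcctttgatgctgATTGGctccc
H2-DMb1, chr17:34153085-34153114, plus strand: gaggtttacctagtAACTGATGatgctagg
H2-DMb2, chr17:34145114-34145143, plus strand: gaggtttacctattAACCGATGatgctagg

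The Y box on the strand of the gene began 48 bases before the start in H2-Aa, 59 in H2-Eb1, 61 in H2-DMb1 and 90 in H2-DMb2. The X box core and this Y box were separated by 22 bases in H2-Eb1 and by 23 in H2-DMb1 and H2-DMb2. The Y boxes of both DM beta genes lie beyond the stretch shown. H2-Eb1 had a further Y box match on the other strand, 35 bases before the start and beyond the stretch shown. The stretches of the DM beta genes differed by 2 of 30 bases, G13T and T18C, written from H2-DMb1 to H2-DMb2 and counted from 1 at the first base shown. T18C lies within the X box core, at the position that the searched letters leave free. Of all 32851 promoter windows, 2.32% held the X box core, 37.4% the Y box, 1.79% the palindrome and 0.88% both the X box core and the Y box. H2-Aa had no match to the X box core, and of the starts listed for H2-DMa only the second had a match, a Y box 198 bases before it. In GENCODE M21 the stretches of H2-DMb1 and H2-DMb2 lie inside the gene, whose first base there is 119 and 1942 bases before the RefSeq start, and those of H2-Aa and H2-Eb1 lie upstream of the gene. These matches describe the windows and do not show binding.

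Values were deposited as FPKM, which are fragments scaled to gene length and to the total of each sample, so levels can be compared between genes. Read depth is unknown. The values of a sample summed to between 380731 and 449186 over all genes. Pearson correlations of log2(FPKM + 1) within a group ran over 10751 genes from 0.938 to 0.995 in NC, 0.888 to 0.995 in COM and 0.989 to 0.995 in COM+Met. NC-5 and NC-6 stood apart from the other NC samples, and COM-1 to COM-3 stood apart from COM-4 to COM-6, with no label that sets them apart. The counts of members called in each comparison, the values of some members, and calls of pathway genes that were lost without these samples are given with and without them. Whether replicate samples stem from different cultures or animals is not stated in the labels. The p-values therefore measure only the spread among the samples at hand, part or all of which may be technical.

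Cd74 had the highest level of the 8 genes in each group, with a median of 2056 FPKM in NC, 711 FPKM in COM and 405 FPKM in COM+Met. The A chains and H2-Eb1 followed, with medians from 479 to 695 FPKM in NC. H2-DMa and H2-DMb1 stood at 73.4 and 66.4 FPKM, H2-DMb2 at 16.7 FPKM and Ciita at 11.9 FPKM. COM+Met was the most even group for all 8 genes by the ratio of the highest to the lowest sample, which was at most 1.62 there (H2-DMb2). In NC this ratio ran from 3.46 for H2-DMa to 11.3 for H2-Eb1.

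**Figure D1:**
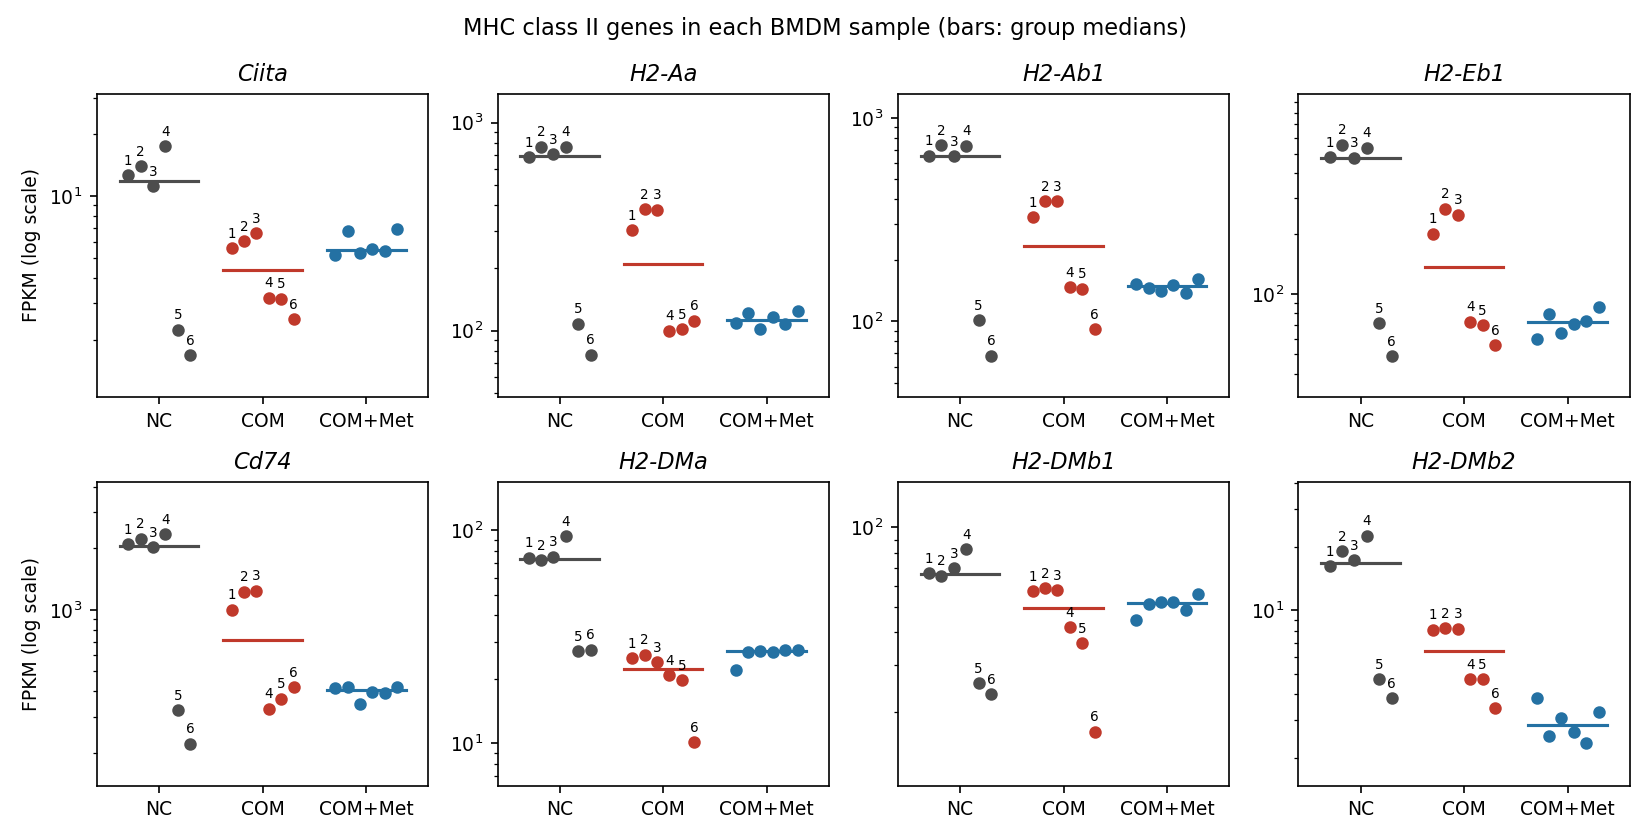
FPKM (log axis) of the 8 class II genes in each of the 18 BMDM samples (n = 6 in each group). Points are samples, numbered by replicate in NC and COM, and bars are group medians. NC-5 and NC-6 sit below the other 4 NC samples for all 8 genes, whereas the COM+Met samples lie close together.

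Ciita, the transactivator, ran from 1.68 to 17.5 FPKM in NC with a median of 11.9, from 2.51 to 6.59 FPKM in COM with a median of 4.39, and from 5.19 to 6.91 FPKM in COM+Met with a median of 5.46. NC-1 to NC-4 lay at 11.1 FPKM or more, above all samples of the other groups, while NC-5 and NC-6, at 2.24 and 1.68 FPKM, lay below all of them. All 3 groups therefore overlapped. The log2 fold change was -0.70 (SE 0.47, limma adjusted p = 0.226) in COM against NC, 0.37 (SE 0.19, adjusted p = 0.222) in COM+Met against COM and -0.33 (SE 0.45, adjusted p = 0.512) in COM+Met against NC.

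H2-Aa, the alpha chain of the A molecule, was at 683 to 767 FPKM in NC-1 to NC-4 but at 108 FPKM in NC-5 and 76.7 FPKM in NC-6. In COM it was at 305, 384 and 381 FPKM in COM-1 to COM-3 and at 100, 102 and 112 FPKM in COM-4 to COM-6. In COM+Met it ran from 102 to 125 FPKM. COM-4 to COM-6, NC-5 and the COM+Met samples thus lay at similar levels of H2-Aa.

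H2-Ab1, the beta chain of the same molecule, split the samples in the same way. It was at 651 to 734 FPKM in NC-1 to NC-4, at 101 and 67.9 FPKM in NC-5 and NC-6, at 325 to 389 FPKM in COM-1 to COM-3, at 91.4 to 147 FPKM in COM-4 to COM-6 and at 139 to 162 FPKM in COM+Met. H2-Eb1, the E beta chain, ran from 49.0 to 554 FPKM in NC (median 479), from 55.5 to 266 FPKM in COM (median 137) and from 59.8 to 86.4 FPKM in COM+Met (median 72.4). Cd74 ran from 222 to 2339 FPKM in NC, from 328 to 1238 FPKM in COM and from 348 to 421 FPKM in COM+Met. The COM+Met samples of H2-Aa, H2-Eb1 and Cd74 overlapped with both other groups only through NC-5, NC-6 and COM-4 to COM-6.

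H2-DMa, the DM alpha chain, was at 72.3 to 93.8 FPKM in NC-1 to NC-4, at 27.2 and 27.5 FPKM in NC-5 and NC-6, at 10.1 to 26.2 FPKM in COM (median 22.4) and at 22.1 to 27.6 FPKM in COM+Met (median 27.1). It was the only member of which no COM sample reached the lowest NC sample, although the gap was narrow, from 26.2 to 27.2 FPKM. H2-DMb1, a DM beta chain, ran from 23.3 to 82.6 FPKM in NC (median 66.4), from 16.8 to 58.9 FPKM in COM (median 49.6) and from 44.7 to 55.8 FPKM in COM+Met (median 51.8). H2-DMb2, the other DM beta chain, ran from 3.81 to 22.5 FPKM in NC (median 16.7), from 3.42 to 8.19 FPKM in COM (median 6.39) and from 2.35 to 3.82 FPKM in COM+Met (median 2.86). The longest protein-coding transcripts of the DM beta genes, of 1404 and 1483 bases, shared 77.6% of aligned bases and an identical run of 221 bases. How the authors' counting divided reads between them is not given in the sources used here, so the separate values of H2-DMb1 and H2-DMb2 are uncertain.

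In COM compared with NC, 1 of the 8 genes was called, which here means that the adjusted p was below 0.05 and the change 2-fold or more on the log2(FPKM + 1) scale, which understates the changes of low genes. The call was H2-DMa, which fell by 1.41 on the log2 scale (SE 0.34, limma adjusted p = 0.0036). An exact permutation test gave p = 0.00216 for H2-DMa, the smallest that it can give. All 8 log2 fold changes were below 0 (7 with median-of-ratios size factors, where H2-DMb1 stood at 0.049), with a median of -0.80 beside -0.27 over all 10900 genes tested. Of all genes tested, 11.7% were called lower and 5.99% higher, and 29.7% had every COM sample below every NC sample. With median-of-ratios size factors the median of all genes moved to 0.0078, and H2-DMa was still lower by -1.11 (SE 0.31, adjusted p = 0.0105). The other members missed the threshold, with values of -0.92 (SE 0.66, adjusted p = 0.255) for H2-Aa, -0.67 (SE 0.66, adjusted p = 0.403) for H2-Ab1, -0.995 (SE 0.69, adjusted p = 0.237) for H2-Eb1 and -0.73 (SE 0.66, adjusted p = 0.365) for Cd74.

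The count of calls in COM against NC turned on NC-5 and NC-6. Without them, 7 of 8 genes were called lower in COM, where the share among all genes was 10.7%. H2-Eb1 was then lower by -2.02 (SE 0.46, limma adjusted p = 0.00505), H2-Aa by -1.92 (SE 0.44, adjusted p = 0.00523) and Ciita by -1.47 (SE 0.24, adjusted p = 0.000652), while H2-DMb1 at -0.76 (adjusted p = 0.0689) was not called. These samples were left out because of their place among all genes in earlier results, but they are also the lowest of NC for all 8 members, so the larger count is partly fixed by that choice. Without COM-4 to COM-6, in turn, H2-DMa was the single call at -1.11 (SE 0.41, limma adjusted p = 0.043), beside 7.46% of all genes called lower, and H2-Aa stood at -0.043. Without COM-1 to COM-3, H2-DMa was again the single call at -1.72 (SE 0.44, limma adjusted p = 0.00721), beside 19.6% of all genes called lower. H2-Eb1 then stood at -1.91 (SE 0.82, limma adjusted p = 0.0661), H2-Aa at -1.80 (SE 0.79, adjusted p = 0.072) and Cd74 at -1.54 (SE 0.80, adjusted p = 0.118), so the values of these genes differed widely between COM-1 to COM-3 and COM-4 to COM-6.

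In COM+Met compared with COM, 0 of the 8 genes were called by limma, with 1 below an unadjusted p of 0.05, beside 1.61% of all 10364 genes called lower and 0.608% called higher. H2-DMb2 was the nearest, at -0.82 (SE 0.19, limma adjusted p = 0.0132), which is short of 2-fold on this scale. At its low level the value depended on the pseudocount, with -0.99 at 0.1 and -0.47 at 5. Its mean was 6.21 FPKM in COM and 2.95 FPKM in COM+Met. Its groups overlapped only through COM-6 at 3.42 FPKM and COM+Met-1 at 3.82 FPKM, and the exact permutation test gave p = 0.00433. By that test, unadjusted, H2-DMa was the other member below 0.05 (exact p = 0.0368). H2-Aa stood at -0.76 (SE 0.36, adjusted p = 0.184), H2-Eb1 at -0.79 (SE 0.38, adjusted p = 0.192) and Cd74 at -0.71 (SE 0.34, adjusted p = 0.184). H2-DMa at 0.37, H2-DMb1 at 0.28 and Ciita at 0.37 had values above 0. Without COM-4 to COM-6, 5 genes were called lower in COM+Met (H2-Aa, H2-Ab1, H2-Eb1, Cd74 and H2-DMb2, from -1.22 to -1.70), beside 5.16% of all genes. COM-4 to COM-6 are the lowest COM samples for each of these 5 genes, so this count too is partly fixed by the choice of samples. Without COM-1 to COM-3, 0 were called by limma, beside 1.28% of all genes called lower and 0.940% called higher, and Ciita at 0.79 (SE 0.11, adjusted p = 0.00166) was higher in COM+Met by less than 2-fold.

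COM+Met was also compared with NC, a comparison that shares its samples with the other 2. Here 5 of 8 genes were called lower, beside 13.6% of all 10786 genes: H2-Eb1 at -1.78 (SE 0.59), H2-DMb2 at -1.68 (SE 0.37), H2-Aa at -1.68 (SE 0.57), Cd74 at -1.44 (SE 0.57) and H2-DMa at -1.05 (SE 0.29). Their limma adjusted p-values ran from 0.00113 for H2-DMb2 to 0.0363 for Cd74. By the exact permutation test, 2 members had p below 0.05, H2-DMb2 at 0.00433 and H2-DMa at 0.0195. None of the 8 genes separated the groups, since NC-5 or NC-6 lay below the highest COM+Met sample in each, whereas 43.6% of all genes tested had every COM+Met sample below every NC sample. With median-of-ratios size factors 3 genes were called, without H2-DMa (-0.74, limma adjusted p = 0.0353) and Cd74 (-1.12, adjusted p = 0.0962). H2-DMa also fell short of 2-fold with quantile normalisation (-0.91) and a pseudocount of 5 (-0.96). Cd74 also missed the limma adjusted p when the filter was dropped (0.0613). Without NC-5 and NC-6, 7 genes were called lower, beside 12.7% of all genes, from -1.10 for Ciita to -2.81 for H2-Eb1, and H2-DMb1 stood at -0.48. NC-5 and NC-6 are the lowest NC samples for all 8 members, so this count too is partly fixed by the choice of samples.

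**Figure D2:**
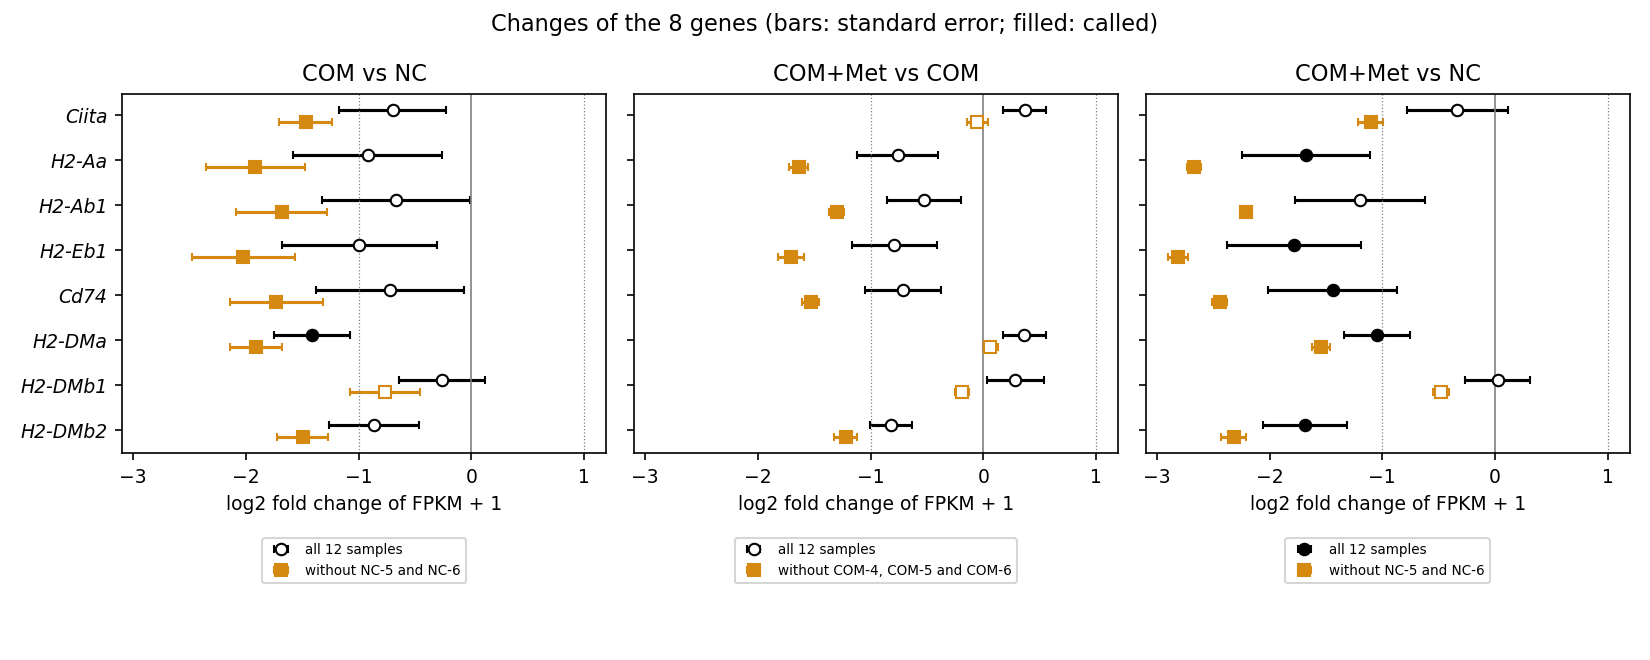
Log2 fold change of FPKM + 1 for the 8 genes in COM against NC, COM+Met against COM and COM+Met against NC. Black circles are fits of all 12 samples, orange squares are fits without the samples named under each panel, bars are standard errors, filled symbols are called genes and dotted lines mark 2-fold. H2-DMa is the only filled circle in COM against NC, and 7 squares are filled there.

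The samples that stood apart did so by different amounts among the members. As a description, the mean of NC-1 to NC-4 was 7.05 to 8.49 times that of NC-5 and NC-6 for Ciita, the A chains, H2-Eb1 and Cd74, but 2.89 times for H2-DMa, 2.92 times for H2-DMb1 and 4.39 times for H2-DMb2. The mean of COM-1 to COM-3 was 2.88 to 3.6 times that of COM-4 to COM-6 for the A chains, H2-Eb1 and Cd74, 2.05 times for Ciita and 1.48 to 1.91 times for the DM genes.

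Ratios of members within a sample do not depend on how a sample is scaled, so 7 ratios were compared in each of the 3 comparisons. They were chosen after the values had been seen, with exact permutation p-values adjusted over these 21 tests. Ratios of other gene pairs were not computed, so a lack of overlap cannot be called particular to these genes. Among single genes, 8.60% were higher and 29.7% lower without overlap in COM against NC. In COM+Met against NC these shares were 14.1% and 43.6%. In COM+Met against COM, 5.34% of single genes were lower without overlap, and the share of higher ones is not reported here. The ratio of H2-DMa to H2-DMb1, an alpha chain and a beta chain of DM, was 1.06 to 1.18 in all 6 NC samples, NC-5 and NC-6 included. It was 0.417 to 0.605 in COM and 0.494 to 0.567 in COM+Met. NC did not overlap with either other group (exact p = 0.00216, adjusted p = 0.00413 for both), while COM+Met and COM did overlap (fold 1.07, exact p = 0.329, adjusted p = 0.384). On this scale, the DM alpha transcript stood at 0.44 times its NC level relative to H2-DMb1 in COM and at 0.47 times in COM+Met. The shared sequence of the DM beta genes makes this ratio uncertain, and a ratio to H2-DMb2 was not compared. H2-DMb2 fell less than H2-DMa in COM against NC (-0.86 and -1.41) but more in COM+Met against NC (-1.68 and -1.05). The picture thus depends on the beta gene used.

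The ratio of Ciita to H2-Ab1 showed another order of the groups. It was 0.0171 to 0.0247 in NC, 0.0155 to 0.0275 in COM and 0.0338 to 0.0461 in COM+Met. COM+Met thus held about 1.98 times as much Ciita relative to H2-Ab1 as COM, without overlap (exact p = 0.00216, adjusted p = 0.00413). COM and NC overlapped (fold 0.94, exact p = 0.608, adjusted p = 0.672). NC-5 and NC-6, with 0.0221 and 0.0247, lay within or just above the range of the other NC samples although both genes were lower there.

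H2-DMb1 relative to H2-DMb2 was 3.46 to 6.10 in NC, 4.90 to 8.92 in COM and 11.7 to 20.6 in COM+Met. COM+Met did not overlap with COM (fold 2.47) or NC (fold 3.97), both at an exact p of 0.00216 and an adjusted p of 0.00413, and COM was higher than NC (fold 1.6, exact p = 0.00649, adjusted p = 0.0114). The shared sequence of the DM beta genes applies to these values too. H2-Eb1 relative to H2-Ab1 was 0.707 to 0.756 in NC and 0.483 to 0.683 in COM, without overlap (fold 0.80, exact p = 0.00216, adjusted p = 0.00413), and was 0.390 to 0.542 in COM+Met. H2-Aa and Cd74 relative to H2-Ab1 passed the adjusted threshold only in COM+Met against NC, with folds of 0.71 and 0.85 (exact p = 0.00216, adjusted p = 0.00413 for both). For H2-DMa relative to H2-Ab1, COM+Met was 1.88 times COM without overlap (exact p = 0.00216, adjusted p = 0.00413), and in the other comparisons the groups overlapped.

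**Figure D3:**
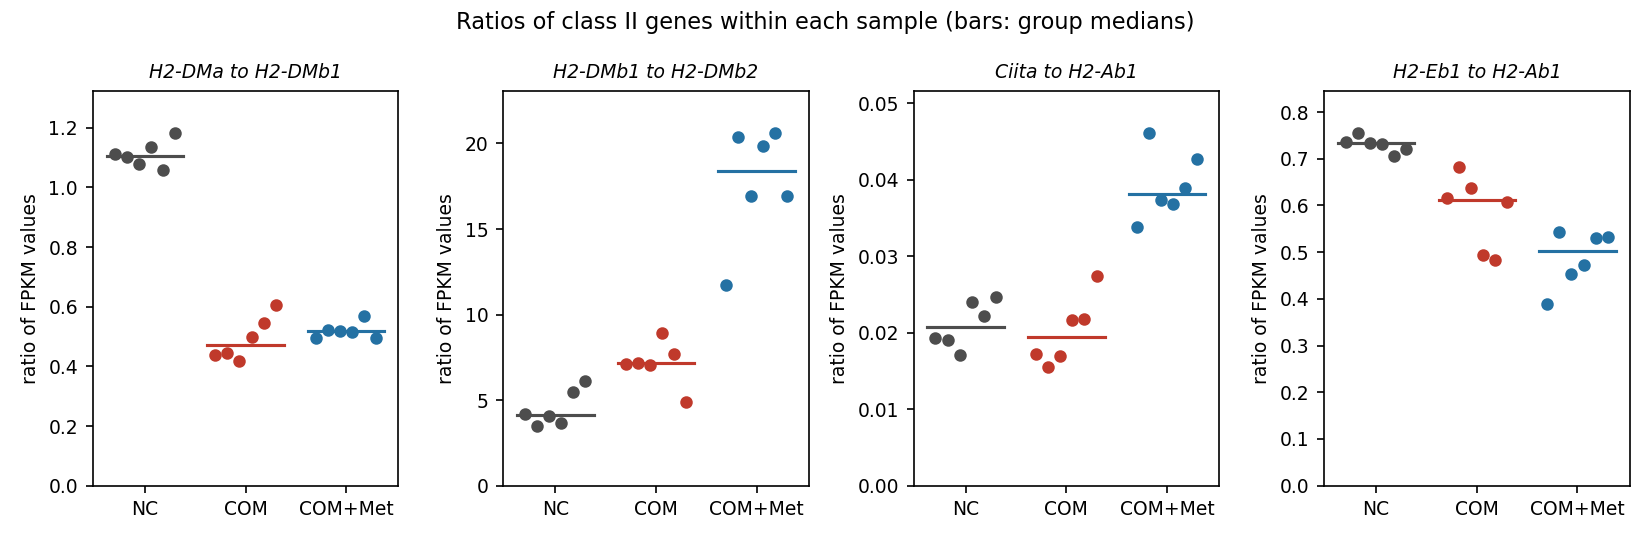
Ratios of FPKM values within each sample, for H2-DMa to H2-DMb1, H2-DMb1 to H2-DMb2, Ciita to H2-Ab1 and H2-Eb1 to H2-Ab1. Points are samples (n = 6 in each group) and bars are group medians, on axes that start at 0. The NC samples lie at 1.06 or above in the first panel and all COM and COM+Met samples at 0.605 or below. In the third panel all COM+Met samples lie above all others.

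A hand-written list of 45 other genes of the pathway was set beside the members, and 43 were found in the table. In COM against NC, 40 of them could be tested, with 5 calls upwards and 1 downwards, beside 5.99% of all genes called higher and 11.7% called lower. At any fold, 12 of them passed the adjusted p upwards and 10 downwards there, beside 12.7% and 40.6% of all genes. There were 0 calls upwards by limma and 1 downwards among 39 in COM+Met against COM, beside 0.608% and 1.61% of all genes. At any fold, 5 of them passed the adjusted p upwards and 7 downwards, beside 5.77% and 7.58% of all genes. In COM+Met against NC there were 7 upwards and 4 downwards among 39, beside 5.66% of all genes called higher and 13.6% called lower. The median log2 fold change of the list was 0.013, -0.090 and -0.030, beside -0.27, 0.0033 and -0.26 over all genes tested.

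Among the 11 inducers of Ciita, transcripts of interferon gamma signalling were called higher while Ciita was not. Ifng itself was listed at 0 in all NC samples and in 5 of 6 samples of each other group, with 0.0339 FPKM in COM-5 and 0.0622 FPKM in COM+Met-4. Jak2, a kinase of the interferon gamma receptor, was at 13.5 to 43.9 FPKM in NC, 111 to 216 FPKM in COM and 89.3 to 102 FPKM in COM+Met, without overlap with NC. Among all genes tested, 8.60% were higher without overlap in COM and 14.1% in COM+Met. Jak2 rose by 2.29 in COM (SE 0.28, limma adjusted p = 3.1e-05) and by 1.89 in COM+Met (SE 0.25, adjusted p = 1.5e-05). Irf1, a transcription factor that acts on a Ciita promoter, rose by 1.85 in COM+Met (SE 0.21, limma adjusted p = 3.7e-06). Its call in COM, at 1.13 (SE 0.29, limma adjusted p = 0.0053), was less secure. It stood at 0.66 without COM-4 to COM-6 (adjusted p = 0.0776), and it passed the adjusted p but fell short of 2-fold without NC-5 and NC-6 (0.78), without NC-5 (0.999) or NC-6 (0.98) alone, and with sample weights (0.43).

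Other inducers had values on the other side. Ifngr1, the ligand-binding chain of the receptor, was at 38.9 to 65.9 FPKM in NC and 22.3 to 35.4 FPKM in COM and was called lower in COM+Met against NC (-1.09, SE 0.12, limma adjusted p = 2.3e-06). Irf4, a transcription factor of lymphoid and myeloid cells, was called lower in COM+Met against NC (-1.07, SE 0.28, adjusted p = 0.00363). Both fell short of 2-fold with median-of-ratios size factors (-0.78 and -0.87), quantile normalisation (-0.95 and -0.73) and a pseudocount of 5 (-0.98 and -0.52), and Irf4 also without NC-1, NC-2 or NC-4 (-0.95 to -0.98).

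Of 7 genes that restrain Ciita or its inducers, 6 could be tested. Socs1, which inhibits Jak kinases, was called higher in COM (2.26, SE 0.40, limma adjusted p = 0.000535) and in COM+Met (2.40, SE 0.27, adjusted p = 3.3e-06) against NC. Of the 7 genes for factors of the X and Y boxes, all tested, only Nfyb, a subunit of the factor that binds the Y box, was called, lower in COM+Met against NC (-1.07, SE 0.071, adjusted p = 2.3e-08). It fell short of 2-fold with median-of-ratios size factors (-0.81), quantile normalisation (-0.76), a pseudocount of 5 (-0.65) and, narrowly, without NC-5 and NC-6 (-0.998). In COM against NC, Nfyb stood at -0.84 (SE 0.095, limma adjusted p = 1.6e-05), short of 2-fold. Every COM sample lay below every NC sample, as for 29.7% of all genes. At any fold, 3 of the 7 genes passed the adjusted p downwards and 0 upwards in COM against NC, beside 40.6% and 12.7% of all genes. In COM+Met against NC, 5 passed downwards and 0 upwards, with shares of all genes by direction not computed.

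Of 8 endosomal processing genes tested, Sppl2a, the intramembrane protease that clears the last remnant of the invariant chain, was called higher in COM against NC (1.29, SE 0.13, limma adjusted p = 6.8e-06). It was at 36.4 to 53.2 FPKM in NC, 96.1 to 144 FPKM in COM and 79.1 to 80.8 FPKM in COM+Met. Ctsb and Ctsh, lysosomal proteases, were called higher in COM+Met against NC, at 1.43 (SE 0.047, adjusted p = 4.3e-11) and 1.26 (SE 0.16, adjusted p = 8.1e-06). Ctsh was just short of 2-fold without NC-5 and NC-6 (0.999). Between COM+Met and COM, 4 of the 8 processing genes passed the adjusted p upwards and 1 downwards, none of them by 2-fold, beside the 5.77% and 7.58% of all genes given above, among them Ctsb at 0.68 (SE 0.15, adjusted p = 0.0106) and Sppl2a at -0.47 (SE 0.095, adjusted p = 0.00675). Ifi30, which was on this list, was not analysed here.

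The other chains of the class II region did not all follow the members in COM against NC. There H2-Oa stood at 0.70 (SE 0.34, limma adjusted p = 0.101) and H2-Eb2 at 0.71 (SE 0.36, adjusted p = 0.111). H2-Oa, the alpha chain of the DM inhibitor DO, was at 1.02 to 6.69 FPKM in NC, 4.30 to 8.71 FPKM in COM and 2.92 to 4.25 FPKM in COM+Met, lower in every COM+Met sample than in every COM sample (-0.73, SE 0.15, limma adjusted p = 0.00605, short of 2-fold). Among all genes, 5.34% were lower in COM+Met than in COM without overlap. H2-Ob, the DO beta chain, had at most 2.05 FPKM and was too low for the fit. It was at 0.360 to 0.803 FPKM in COM and 0.0297 to 0.272 FPKM in COM+Met, also without overlap (exact permutation p = 0.00216). H2-Eb2, a second E beta gene, was at 0.111 to 1.96 FPKM in NC, at 3.89 to 3.99 FPKM in COM-1 to COM-3, at 0.648 to 1.47 FPKM in COM-4 to COM-6 and at 0.197 to 0.527 FPKM in COM+Met. It was the single list gene called in COM+Met against COM (-1.22, SE 0.29, adjusted p = 0.0149). The call rested on COM-1 to COM-3, since without them H2-Eb2 was too low for the fit, so it could only be downwards. It fell short of 2-fold with a pseudocount of 5 (-0.45). Like the members, H2-Oa, H2-Ob and H2-Eb2 were each lower in NC-5 and NC-6 than in all of NC-1 to NC-4. H2-Oa was at 1.02 and 1.22 FPKM there, against 4.74 to 6.69 FPKM.

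The invariant chain also forms part of a surface receptor for the cytokine MIF. Mif was at 88.9 to 119 FPKM in NC, 32.4 to 233 FPKM in COM and 190 to 308 FPKM in COM+Met, called higher in COM+Met against NC (1.02, SE 0.11, limma adjusted p = 3.5e-06). It lay so near to 2-fold that the call was lost with TPM (0.98), sample weights (0.996) and a pseudocount of 5 (0.99), and without NC-4 (0.97) or COM+Met-1 (0.91). Cxcr2, a partner receptor of MIF, was at 1.55 to 2.55 FPKM in NC and below 0.71 FPKM in all other samples, and was called lower in COM (-1.28, SE 0.15, adjusted p = 2.1e-05) and in COM+Met (-1.61, SE 0.094, adjusted p = 7.0e-09) against NC. Cxcr2 passed the filter of 1 FPKM only through its NC values, so these calls could only be downwards. At such low levels the fold depended on the pseudocount. With a pseudocount of 5, Cxcr2 stood at -0.44 in COM and -0.52 in COM+Met, and with 0.1 it stood at -2.63 in COM. With sample weights it was just short of 2-fold in COM (-0.99). Of 3 genes for the turnover of class II molecules at the surface, 0 were called by limma in any comparison, although in COM against NC 1 passed the adjusted p upwards and 1 downwards without reaching 2-fold, where the shares of all genes were 12.7% and 40.6%. Of these, Marchf1, a ubiquitin ligase for class II molecules, stood at 0.96 (SE 0.20, adjusted p = 0.0015) in COM against NC and -0.85 (SE 0.14, adjusted p = 0.00217) in COM+Met against COM, without overlap in either. It was chosen for mention after its values were seen.

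**Figure D4:**
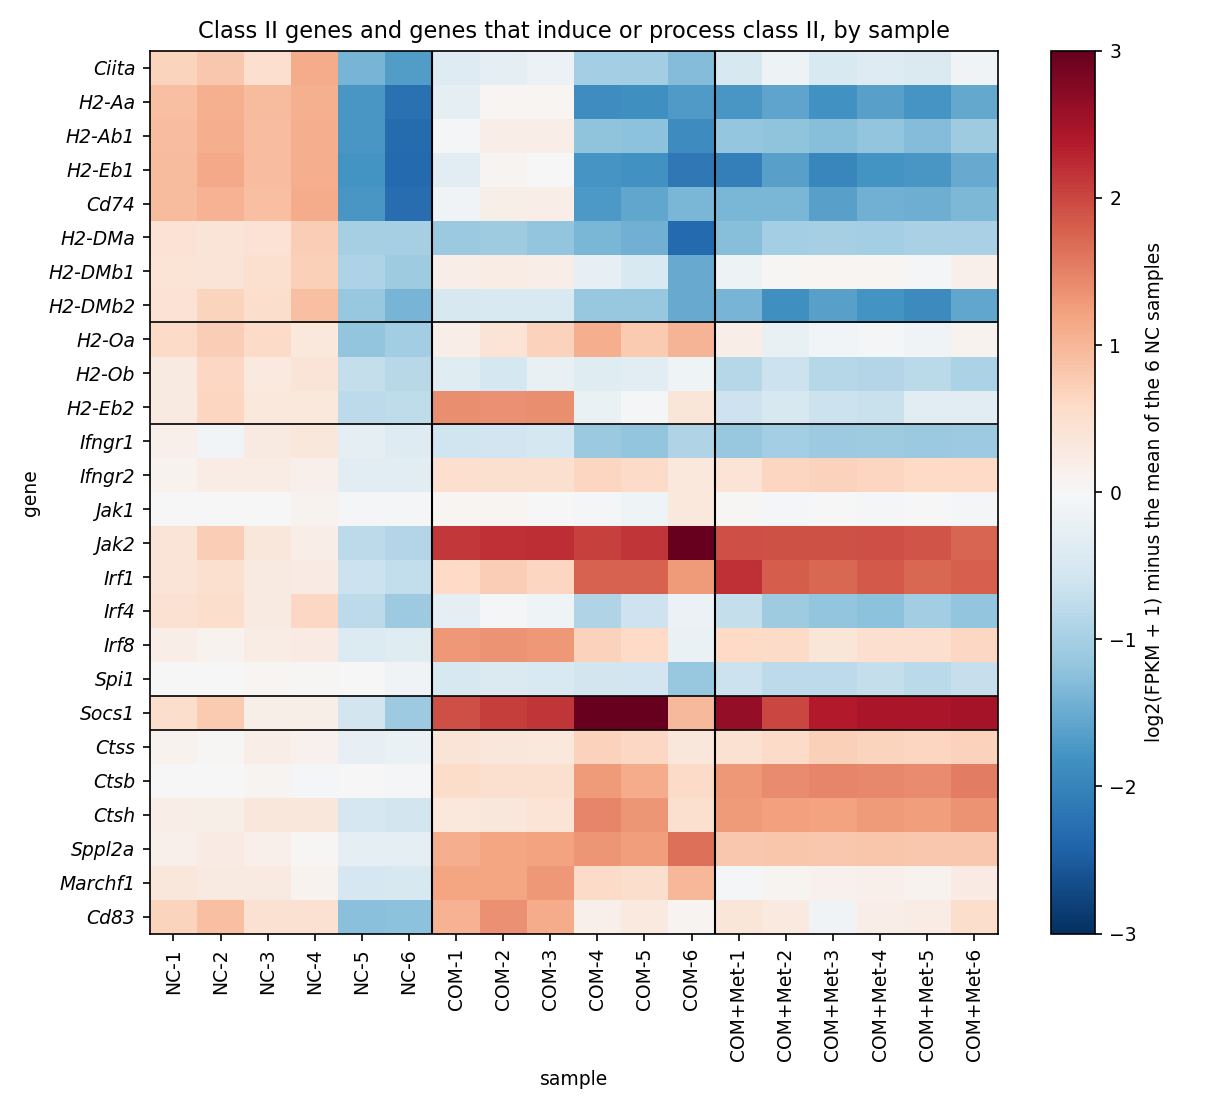
Heat map of log2(FPKM + 1) minus the mean of the 6 NC samples, for the 8 class II genes (top block) and 18 genes of the pathway list in 18 samples. Red is higher and blue lower than the NC mean, and colours stop at 3 in either direction. Jak2 and Socs1 are red across COM and COM+Met, where most of the class II genes are blue, and NC-5 and NC-6 are blue for all 8 members.

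Some genes outside the pathway had nearly the same pattern over the 18 samples. Likeness was measured as the root mean square difference of log2(FPKM + 1) after each gene had been centred on its own mean. Closest to H2-Ab1 among 2565 candidates were P2rx5 at 0.26, Ahrr at 0.27, Dpep2 at 0.38, Dcstamp at 0.43 and Adgre5 at 0.45. Among the members, Cd74 was at 0.22 from H2-Ab1, H2-Aa at 0.26, H2-Eb1 at 0.28 and Ciita at 0.52. P2rx5, an ATP-gated channel, was at 18.8 to 20.8 FPKM in NC-1 to NC-4, at 2.94 and 4.10 FPKM in NC-5 and NC-6, at 2.66 to 11.7 FPKM in COM and at 3.32 to 4.41 FPKM in COM+Met. Among the closest to Ciita of 4594 candidates were Arl10 at 0.34, Trim7 at 0.35, Etv3 at 0.36 and Arhgap6 at 0.37, with H2-DMb1 the nearest member at 0.36. These samples share culture and sequencing, and the order is a description.

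Markers of the cells that could carry class II were read in the same samples. Of 10 macrophage markers, 9 averaged 1 FPKM or more in each group, the exception being Cd163, at or below 0.553 FPKM in every sample. The sum of the list, led by Lyz2, was 11086 to 15625 FPKM in NC, 10605 to 14300 FPKM in COM and 12315 to 17057 FPKM in COM+Met. In NC-5 and NC-6, 8 of the 10 lay below and 2 above all of NC-1 to NC-4. Csf1r, the M-CSF receptor, was at 328 to 356 FPKM in NC-1 to NC-4 and at 146 and 136 FPKM in NC-5 and NC-6. Adgre1, which encodes the F4/80 antigen, differed little within NC, at 115 to 120 FPKM against 98.6 and 99.6 FPKM. Between groups it differed more, at 518 to 669 FPKM in COM and 493 to 634 FPKM in COM+Met. Adgre1, Fcgr1 and Cd14 were higher in every COM and COM+Met sample than in every NC sample, and Cd163 was lower. The other macrophage markers overlapped between NC and COM. Among all genes, 8.60% were higher without overlap in COM and 14.1% in COM+Met. The markers that were higher in NC-5 and NC-6 were Cd68, at 823 and 830 against 656 to 672 FPKM, and Mertk, at 31.5 and 29.9 against 10.5 to 15.3 FPKM. Of 10 B cell markers, only Cd22 reached a mean of 1 FPKM, and the defining marker Cd79a did not exceed 0.155 FPKM, with a summed level of 5.20 to 7.03 FPKM in NC, 3.34 to 4.69 FPKM in COM and 3.74 to 5.02 FPKM in COM+Met.

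The sum of 11 dendritic cell markers was 9.02 to 32.5 FPKM in NC, 64.3 to 228 FPKM in COM and 39.5 to 76.9 FPKM in COM+Met, and 4, 5 and 1 of them averaged 1 FPKM or more. Within NC it was 24.3 to 32.5 FPKM in the first 4 samples and 9.02 to 10.0 FPKM in NC-5 and NC-6. Its highest gene in each group was Ccr7, a chemokine receptor of activated macrophages too, at 195 to 214 FPKM in COM-1 to COM-3 and 61.2 to 64.6 FPKM in COM-4 to COM-6. Flt3 was at 3.5 to 3.92 FPKM in COM-1 to COM-3 and at most 1.53 FPKM elsewhere, and Cd209a was listed at 0 in every COM and COM+Met sample. Within NC, 9 of the 11 markers were lower in NC-5 and NC-6 than in all of NC-1 to NC-4, but Clec10a was higher, at 4.08 and 4.73 against 1.77 to 2.90 FPKM. Within COM, 5 of the 11 were lower in COM-4 to COM-6 than in all of COM-1 to COM-3 and 1 was higher, Xcr1, at no more than 0.283 FPKM. The sum, which Ccr7 dominates in COM and COM+Met, was thus higher within NC and within COM in the samples with more class II RNA, but lower in NC than in COM. Its part in the class II values was not tested.

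The other lists moved between the groups as well. The sum of 10 T and NK cell markers was 0.311 to 3.92 FPKM in NC, 0.461 to 1.6 FPKM in COM and 1.24 to 2.17 FPKM in COM+Met. The sum of 12 neutrophil markers was 435 to 653 FPKM in NC, 1026 to 1758 FPKM in COM and 669 to 768 FPKM in COM+Met. It was led in COM and COM+Met by Lcn2, which macrophages also express. Lcn2 was at 9.03 to 39 FPKM in NC and 640 to 1672 FPKM in COM. S100a9, Ngp and Ltf went the other way, lower in every COM and COM+Met sample than in every NC sample. S100a9 was at 114 to 259 FPKM in NC and 1.34 to 17.8 FPKM in COM. Mmp9, at 0.498 to 8.64 FPKM in NC and 5.8 to 61 FPKM in COM, did not fall in COM. The sum of 13 tubular epithelial markers was 10.96 to 18.4 FPKM in NC, 0.468 to 1.37 FPKM in COM and 0.0575 to 0.332 FPKM in COM+Met, with Cdh1 the highest in each group. Cdh1 alone was at 9.45 to 17.8 FPKM in NC. No other marker of this list exceeded 1.77 FPKM (Epcam) in any sample, and Krt18, Aqp2 and Umod were listed at 0 in all. The sum of 9 stromal markers was 21.7 to 77.2 FPKM in NC, with 58.8 to 77.2 FPKM in NC-1 to NC-4, 6.06 to 42.4 FPKM in COM and 3.32 to 8.72 FPKM in COM+Met. Whether such cells were present, and their part in the class II values, was not tested.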

How the data were processed

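The 18 BMDM samples were placed in the groups NC, COM and COM+Met (n = 6 each) by their labels. All 18 sample columns of the table served, with 0 unused. The authors deposited FPKM values for each gene in each single sample. Libraries were TruSeq libraries of total RNA. In the submitters' processing notes Bowtie 0.12.2 appears beside mm8 and mm9, without a role for either build. The program behind the FPKM, with its annotation and any filter, is not given in the sources used here. Read depth cannot be taken from FPKM, and no counting interval is therefore given. Since FPKM is relative to the sample total, a rise of abundant genes lowers the values of others.

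The 8 members were found by symbol. Each comparison had its own fit of 12 samples, made with limma 3.58.1 (trend on mean expression) in R 4.3.3 on log2(FPKM + 1), over genes that averaged 1 FPKM or more, and p-values were adjusted by Benjamini-Hochberg over all of these. Single genes and ratios were compared by two-sided exact permutation tests. Python 3.11.15 with pandas 2.3.3, scipy 1.17.1 and matplotlib 3.10.9 served for tables and plots. The procedure was tested on simulated data.

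The members, the pathway list, the marker lists (macrophage, dendritic cell, B cell, T and NK cell, neutrophil, tubular epithelium, stroma) and the sets of samples left out were chosen with earlier results of these data known. The ratios were chosen after the values, and the promoter motifs after the sequences, had been seen. All members are named. Of the pathway list, H2-Oa, H2-Ob, H2-Eb2, Ifng and the genes called in any comparison are named, and the others are counted. Some genes that these rules name are not reported here. The genes most like H2-Ab1 and Ciita, 5 for each, came from genes that averaged 1 FPKM or more over all samples and whose SD was at least 0.5 times that of the member. Marchf1 and Marchf8 were matched by Ensembl identifier, since the table gives their symbols as dates.

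As alternatives, the pseudocount was set to 0.1 or 5, the filter was dropped or raised to 5 FPKM, and values were rescaled to TPM, by quantiles or by median-of-ratios size factors. Further alternatives were a block for the replicate number, a single fit of all 18 samples, sample weights, each sample left out, and the sets NC-5 and NC-6, COM-4 to COM-6 and COM-1 to COM-3 left out.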

Additional observations from a re-analysis of the deposited data

Results flagged for a closer look

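In 3 of 24 groups of 6 values (8 genes in 3 groups), the lowest sample lay farther from the rest than Dixon's 95% limit allows, where chance flags about 1 group in 20. H2-DMa was at 10.1 FPKM in COM-6, with the other COM samples at 19.8 to 26.2 FPKM. H2-DMa was at 22.1 FPKM in COM+Met-1, with the other COM+Met samples at 26.8 to 27.6 FPKM. Cd74 was at 348 FPKM in COM+Met-3, with the other COM+Met samples at 393 to 421 FPKM. Without COM-6, H2-DMa in COM against NC stood at -1.23 on the log2 scale and was still called.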

How the results depend on the processing

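The number of members called in COM against NC was 7 without NC-5 and NC-6, and ran from 1 to 3 with single samples left out (2 without NC-5, 3 without NC-6). In COM+Met against COM it was 5 with sample weights and 5 without COM-4 to COM-6, and ran from 0 to 1 with single samples left out (1 without COM-6). In COM+Met against NC it was 3 with median-of-ratios size factors, and ran from 3 to 6 with single samples left out (3 without NC-1, NC-2, NC-3, NC-4 or COM+Met-1, and 6 without NC-5 or NC-6). The other alternatives left these counts within 1.5 times of 1, 0 and 5, and H2-DMa was called in COM against NC under each. The filter of 5 FPKM left H2-DMb2 out of COM+Met against COM. Shares of all genes called were not computed with sample weights, with median-of-ratios size factors or with single samples left out. The counts under these settings therefore have no share beside them. Signs of log2 fold changes turned in COM against NC for H2-DMb1 with median-of-ratios size factors (0.049) and, without COM-4 to COM-6, for H2-Ab1 (0.10), H2-DMb1 (0.21) and Cd74 (0.092). In COM+Met against COM they turned with sample weights for H2-DMb1 (-0.15) and Ciita (-0.032), without COM-4 to COM-6 for H2-DMb1 (-0.19) and Ciita (-0.053), and without COM-1 to COM-3 for H2-Aa (0.12), H2-Ab1 (0.25), H2-Eb1 (0.13) and Cd74 (0.10). In COM+Met against NC only H2-DMb1 turned: -0.021 with TPM, -0.35 with sample weights, -0.48 without NC-5 and NC-6, and -0.19 to 0.17 with single samples left out (below 0 without NC-5, NC-6 or COM+Met-6). Of the log2 ratios, 3 near 0 turned: Ciita to H2-Ab1 in COM against NC without NC-5 and NC-6 (0.00044), Cd74 to H2-Ab1 in COM against NC without COM-4 (-0.17 to 0.035 with single samples left out) and H2-DMa to H2-Ab1 in COM+Met against NC without NC-2 (-0.018 to 0.39 with single samples left out). Apart from the samples left out by construction, the cause was not tested. Over all genes, same-numbered samples of different groups did not deviate together (18 correlations from -0.222 to 0.057, 0 above 0.1, and 0 samples correlated best with their own number). For every member, however, samples 1 to 3 lay above samples 5 and 6 in both NC and COM, so whether the numbers pair the samples is not settled. The replicate block left the counts of members called at 1, 0 and 5. In COM against NC it lowered the SE of H2-Ab1 from 0.66 to 0.35. It also took H2-DMb2 (-0.86, short of 2-fold) from a limma adjusted p of 0.084 to 0.0243. Depth is unknown, so the counting error of Ciita and H2-DMb2, the lowest members, cannot be given.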
